A study of Mus musculus with 7 samples.

Results

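The genes described here encode the immunoproteasome, its interferon-inducible activator and the machinery that loads peptides onto MHC class I molecules, together with the factor that switches class I genes on. The 10 genes, *Psmb8*, *Psmb9*, *Psmb10*, *Psme1*, *Psme2*, *Tap1*, *Tap2*, *Tapbp*, *B2m* and *Nlrc5*, were chosen by name from these roles and found in the count table by Ensembl identifier. All 10 of them were among its 20927 genes. They were also all among the 13894 genes that reached 10 counts in 3 or more libraries and were tested, so that none was lost to the filter on low counts.

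RNA was sequenced from left ventricles of 3 WT mice (replicates 1, 3 and 4) and 4 mice homozygous for the A178D substitution in titin (replicates 1 to 4), and the comparison asked which transcripts differ between the genotypes. Titin is the giant filament protein of the sarcomere. All mice were labelled C57BL/6J. The substitution had been made with CRISPR-Cas9 in C57BL/6N embryonic stem cells, together with a silent change for genotyping, and the line was backcrossed to C57BL/6J before WT and homozygous littermates were bred. The labels give neither the age nor the sex of these mice, name no treatment and no sequencing batch, and p-values here measure the spread between these samples. Total counts lay between 41102868 and 54245530 in WT and between 33080675 and 52345529 in A178D libraries. Levels are given in CPM, after TMM scaling of the library sizes, and differences as log2 fold changes of A178D over WT with their standard error (SE).

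The cardiac markers fitted the labelled tissue. *Myh6*, the adult cardiac myosin heavy chain, lay between 35695 and 41671 CPM in all 7 hearts, whereas 4 of 7 marker genes of other tissues were listed at 0 in every heart. The Y-linked gene *Ddx3y* was present in every heart, between 75.2 and 118.8 CPM. *Ttn* itself ranged from 6247 to 7245 CPM in WT and from 4087 to 6490 CPM in A178D hearts, a level that is no check of a point substitution. With a log2 fold change of -0.27 ± 0.12 (SE, edgeR quasi-likelihood test, Benjamini-Hochberg adjusted p = 0.287), it was not called. Leaving out A178D replicate 4, the lowest heart, made it -0.15, and the correction for transcript length and GC content made it -0.16.

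The proteasome is the barrel-shaped protease that degrades ubiquitylated proteins, and its proteolytic sites sit on beta subunits. Under interferon gamma, cells exchange the constitutive catalytic subunits for PSMB8, PSMB9 and PSMB10, which changes the peptides that are cut and favours those that fit class I molecules. These peptides are pumped into the endoplasmic reticulum by the TAP transporter and placed, with the help of tapasin, in a groove formed by a class I heavy chain paired with beta-2-microglobulin. Leukocytes express these genes strongly, and other cells, those of the heart included, induce them during inflammation. In bulk samples of ventricle, fewer cells of a type and less RNA per cell cannot be told apart.

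None of the 10 genes was called between the genotypes at an adjusted p under 0.05, beside 2.35% of all tested genes, of which 1.04% were called higher and 1.31% lower. This count of 0 came from the quasi-likelihood test of edgeR after Benjamini-Hochberg adjustment over all tested genes, and DESeq2 and limma-voom also called 0. The log2 fold change was above 0 in 9 of the 10 genes, beside 7018 of all 13894, and below 0 in *Tapbp*. The median over the 10 genes was 0.21 beside 0.0023 over all tested genes. At an unadjusted p under 0.05 in edgeR, 3 of the 10 genes were higher in A178D, *Psmb8*, *Psmb9* and *Psmb10*, where 7.93% of all tested genes were, and 0 were lower, where 8.81% were. DESeq2 and limma-voom each gave 3 genes at that level as well. In 1 of the 10 genes, *Psmb10*, all 4 A178D hearts were higher than all 3 WT hearts, which held for 7.61% of all tested genes, and in 0 were all A178D hearts lower, which held for 8.52%.

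Several of these numbers moved when single hearts were left out, while 8 to 10 of the 10 genes lay above 0 in each such fit. A178D replicate 2 had the highest level of all 7 hearts in 8 of the 10 genes, where 9.36% of all tested genes were highest in it. WT replicate 1 had the lowest level in 6, and the share of all tested genes lowest in it was not counted. Without A178D replicate 2 the median over the 10 genes was 0.076, and without WT replicate 1 it was 0.14. The number of genes with an unadjusted p under 0.05 was 1 without A178D replicate 2, without WT replicate 1 or without WT replicate 4, and in each of these fits the gene was *Psmb10*. The 327 calls over all genes became 53 without WT replicate 3, 82 without WT replicate 4, 90 without A178D replicate 1, 190 without A178D replicate 3 and 216 without A178D replicate 2, and rose to 369 without A178D replicate 4 and 453 without WT replicate 1. None of the 10 genes was called in any fit that left out 1 heart.

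**Figure D1:**
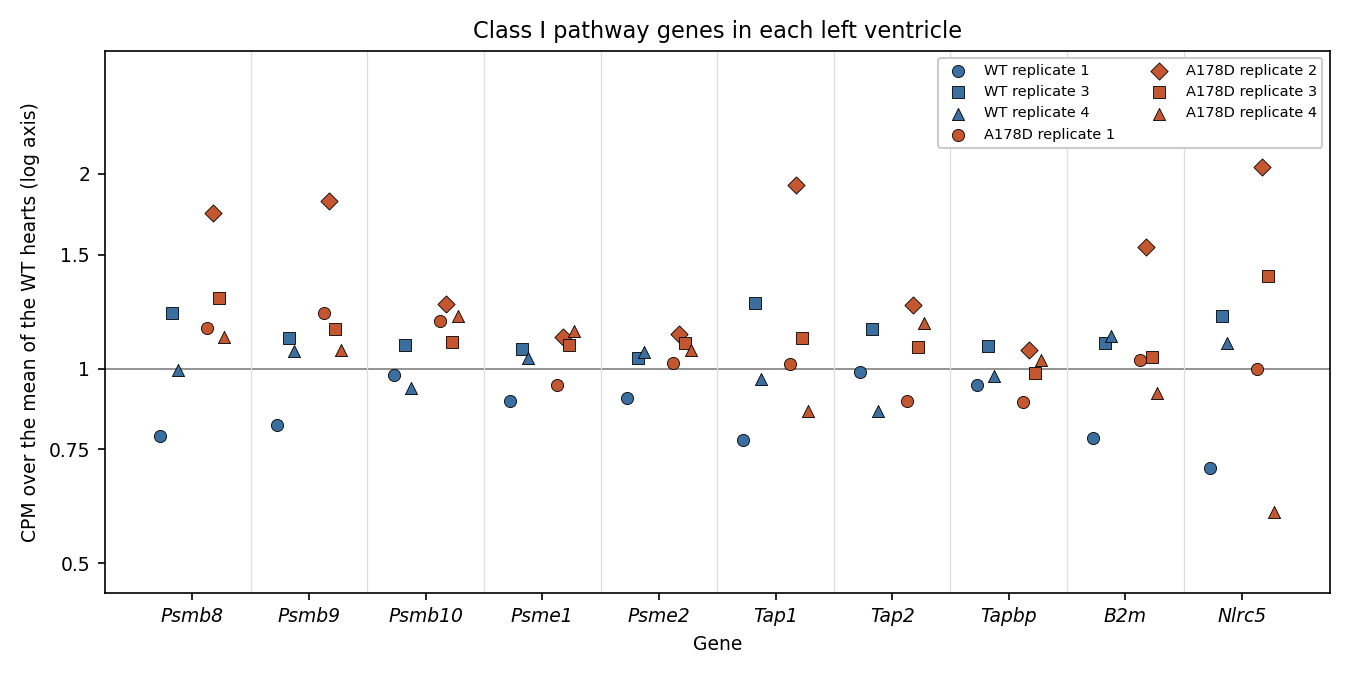
Level of each of the 10 genes in each heart, as CPM over the mean of the 3 WT hearts on a log axis, where the grey line marks that mean. Blue symbols are WT and red symbols A178D hearts, each point is 1 heart, and A178D replicate 2 (red diamond) is highest in 8 of the 10 genes.

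*Psmb8* (ENSMUSG00000024338) encodes the immunoproteasome subunit that takes the place of PSMB5, the subunit with chymotrypsin-like activity, and lies in the class II region of the MHC on chromosome 17 from 34197721 to 34201454. Its level was 14.5, 22.4 and 18.3 CPM in WT replicates 1, 3 and 4. It was 21.2, 32.0, 23.6 and 20.6 CPM in A178D replicates 1 to 4. A178D replicate 2 stood above all other hearts, replicate 3 was just above the highest WT heart, and the remaining A178D hearts lay within the WT range. The group means were 18.4 ± 4.0 CPM (SD, n = 3) and 24.4 ± 5.3 CPM (SD, n = 4). This made a log2 fold change of 0.41 ± 0.16 (SE, edgeR, Benjamini-Hochberg adjusted p = 0.223). It became 0.25 ± 0.14 without A178D replicate 2 (edgeR, Benjamini-Hochberg adjusted p = 0.416) and 0.27 without WT replicate 1. In the other direction, it was 0.58 without WT replicate 3 and 0.48 without A178D replicate 4.

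*Psmb9* (ENSMUSG00000096727) encodes the subunit that replaces PSMB6 and shifts the core away from cutting after acidic residues. The gene spans bases 34181987 to 34187764 of chromosome 17. Its level was 7.59, 10.3 and 9.87 CPM in WT replicates 1, 3 and 4, and 11.3, 16.8, 10.7 and 9.91 CPM in A178D replicates 1 to 4. The genotypes overlapped narrowly, since only A178D replicate 4 fell within the WT range, and A178D replicate 2 was again far above the rest. *Psmb9* had a log2 fold change of 0.40 ± 0.17 (SE, edgeR, Benjamini-Hochberg adjusted p = 0.264), and of 0.20 ± 0.14 once A178D replicate 2 was left out (edgeR, Benjamini-Hochberg adjusted p = 0.526). With WT replicate 3 or A178D replicate 4 left out, it was 0.49.

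*Psmb10* (ENSMUSG00000031897) encodes the third inducible subunit, the counterpart of the trypsin-like PSMB7. It is the only catalytic immunoproteasome gene outside the MHC, on chromosome 8 from 105935735 to 105938444. Its level was 44.6, 49.7 and 42.6 CPM in WT replicates 1, 3 and 4, and 54.0, 57.4, 50.2 and 55.1 CPM in A178D replicates 1 to 4. All 4 A178D hearts exceeded all 3 WT hearts, though A178D replicate 3 was only slightly above WT replicate 3, and A178D replicate 2 was close to the other A178D hearts. The log2 fold change, 0.25 ± 0.08 (SE), carried the lowest adjusted p of the 10 genes (edgeR, Benjamini-Hochberg adjusted p = 0.132). It was 0.22 ± 0.09 without A178D replicate 2 (edgeR, Benjamini-Hochberg adjusted p = 0.255). Over the fits that left out 1 heart it ran from 0.20 without WT replicate 4 to 0.31 without WT replicate 3. After correction of each library for its dependence on GC content and transcript length it was 0.15 ± 0.07 (edgeR, Benjamini-Hochberg adjusted p = 0.279), and no gene of the 10 then had an unadjusted p under 0.05.

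Because the inducible subunits replace constitutive ones at the same place in the core, each was set against its partner within each heart, a ratio that does not depend on library scaling. Scaled by transcript length, *Psmb8* stood at 13.3, 19.9 and 16.7% of *Psmb5* in WT replicates 1, 3 and 4. In A178D replicates 1 to 4 it stood at 16.8, 25.3, 20.7 and 13.8%. A178D replicate 2 was highest and WT replicate 1 lowest, and the genotypes overlapped. *Psmb9* was far scarcer beside its partner, between 3.54 and 4.35% of *Psmb6* in WT and between 3.54 and 6.94% in A178D hearts. *Psmb10* stood between 21.3 and 27.8% of *Psmb7* in WT and between 24.9 and 29.0% in A178D hearts. These shares depend on the length used. With the union of exons they lay between 6.39 and 12.2% for *Psmb8*, between 3.07 and 6.01% for *Psmb9* and between 48.3 and 65.7% for *Psmb10* over the 7 hearts. With either length each constitutive subunit exceeded its inducible counterpart in every heart.

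Between genotypes the ratios overlapped. The *Psmb8* to *Psmb5* ratio was 0.19 higher in A178D on the log2 scale (exact permutation p = 0.486, two-sided) and 0.042 higher without A178D replicate 2 or 0.036 without WT replicate 1. The *Psmb9* to *Psmb6* ratio was 0.26 higher (exact permutation p = 0.343) and 0.076 higher without that heart. The *Psmb10* to *Psmb7* ratio was 0.084 higher (exact permutation p = 0.571), although *Psmb10* alone separated the genotypes. *Psmb7* itself was at 149.8, 158.4 and 177.0 CPM in WT and at 192.0, 175.2, 163.7 and 194.0 CPM in A178D hearts, so that numerator and denominator were both higher on average in A178D. Without WT replicate 4 the ratio of *Psmb10* to *Psmb7* was -0.030, on the other side of 0. Over the 5 ratios computed, the Benjamini-Hochberg adjusted p of the exact tests was 0.914 for each, where 3 against 4 hearts allow no exact p below 0.0286, so these tests have little power to find a difference.

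The rest of the proteasome gave a frame for these values. For comparison with this and the later lists, edgeR called 1.04% of all tested genes higher and 1.31% lower. At an unadjusted p under 0.05, 7.93% were higher and 8.81% lower. All 7 constitutive beta subunit genes lay above 0, with a median of 0.16, from 0.022 for *Psmb2* to 0.22 for *Psmb5*, and 0 were called by edgeR, with 2 at an unadjusted p under 0.05. All 7 alpha ring genes were above 0 with a median of 0.17, from 0.13 for *Psma4* to 0.18 for *Psma6*, again with 0 called and 2 at an unadjusted p under 0.05. Of the 19S regulatory particle, which unfolds ubiquitylated substrates, all 21 genes were above 0 with a median of 0.12, from 0.035 for *Psmd10* to 0.25 for *Psmd6*, with 0 called and 2 at an unadjusted p under 0.05. DESeq2 called 1 of these genes higher, *Psmd6* (adjusted p = 0.0235), and limma-voom called 0. Without WT replicate 1 the alpha ring median was 0.10. All A178D hearts exceeded all WT hearts in 2 of 7 beta, 2 of 7 alpha and 8 of 21 regulatory genes, beside 7.61% of all tested genes. The direction was not kept for every gene: with the correction for length and GC content 5 of 7 beta, 7 of 7 alpha and 17 of 21 regulatory genes were above 0, with medians of 0.042, 0.078 and 0.071. A178D replicate 2, the highest heart for *Psmb8* and *Psmb9*, was the highest heart for 0 of the 7 beta, 0 of the 7 alpha and 1 of the 21 regulatory genes.

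*Psme1* (ENSMUSG00000022216) and *Psme2* (ENSMUSG00000079197) encode PA28 alpha and beta, which form the ring that opens the end of the core particle and is induced together with the immunoproteasome. They lie close together on chromosome 14, from 55578123 to 55581529 and from 55587441 to 55591113. *Psme1* was at 120.9, 145.6 and 141.3 CPM in WT replicates 1, 3 and 4, and at 128.2, 152.2, 147.9 and 155.2 CPM in A178D replicates 1 to 4. Here A178D replicate 4 was highest, WT replicate 1 lowest, and A178D replicate 1 fell between WT hearts. *Psme2* ranged from 50.7 to 59.8 CPM in WT and from 57.4 to 63.6 CPM in A178D hearts. A near-identical retrogene copy of *Psme2* exists and is not in the count table, so how reads shared with it were counted is not known.

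For *Psme1* the log2 fold change was 0.10 ± 0.09 (SE, edgeR, Benjamini-Hochberg adjusted p = 0.589). For *Psme2* it was 0.11 ± 0.08 (SE, edgeR, Benjamini-Hochberg adjusted p = 0.520). Without A178D replicate 2 they were 0.084 and 0.090, and without WT replicate 1 they were 0.027 and 0.042. *Psme1* was 0.16 without A178D replicate 1 and 0.15 without WT replicate 3. The correction for length and GC content gave -0.013 and -0.011. The ratio of *Psme1* to *Psme2* counts was the steadiest of the 5 ratios, between 2.36 and 2.49 in WT and between 2.23 and 2.58 in A178D hearts (difference -0.0095 on the log2 scale, exact permutation p = 0.914). Of 8 other activator, inhibitor and assembly genes, 8 were above 0 with a median of 0.13. In 3 of these genes all A178D exceeded all WT hearts, beside 7.61% of all tested genes. Both edgeR and limma-voom called 0 of the 8, with 2 higher at an unadjusted p under 0.05 in edgeR, beside 7.93%. DESeq2 called 1 of them higher, *Pomp*, whose product helps to assemble the core and the immunoproteasome in particular (adjusted p = 0.024 in DESeq2 and 0.0848 in edgeR, both after Benjamini-Hochberg adjustment). *Pomp* was at 88.0, 83.6 and 86.9 CPM in WT and at 105.2, 96.2, 98.8 and 114.9 CPM in A178D hearts, with all A178D above all WT hearts and a log2 fold change of 0.27 ± 0.08. The most abundant gene of the list was *Psme4*, which encodes the nuclear activator PA200, with a log2 fold change of 0.055. The value furthest above 0 was 0.29 for *Psmg3*, a core assembly chaperone, and the nearest to 0 was 0.030 for *Psmg1*.

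*Tap1* (ENSMUSG00000037321) and *Tap2* (ENSMUSG00000024339) encode the subunits of the heterodimer that carries peptides from the cytosol into the endoplasmic reticulum. *Tap1* lies on chromosome 17 from 34187553 to 34197225, back to back with *Psmb9* on the other strand, and the annotated genes share 212 bases. Its level was 15.7, 25.5 and 19.5 CPM in WT replicates 1, 3 and 4, and 20.6, 38.9, 22.6 and 17.4 CPM in A178D replicates 1 to 4. Only A178D replicate 2 exceeded the WT range, and the other 3 A178D hearts lay inside it. *Tap1* thus had a log2 fold change of 0.30 ± 0.23 (SE, edgeR, Benjamini-Hochberg adjusted p = 0.541). Left without A178D replicate 2 it was 0.0013 ± 0.16, without WT replicate 1 it was 0.15, and without WT replicate 3 it was 0.51.

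*Tap2*, on chromosome 17 from 34203527 to 34216321, was at 33.2, 38.7 and 28.9 CPM in WT and at 29.9, 42.1, 36.2 and 39.4 CPM in A178D hearts. A178D replicates 2 and 4 were above the WT range and replicates 1 and 3 within it. Between genotypes *Tap2* had a log2 fold change of 0.14 ± 0.12 (SE, edgeR, Benjamini-Hochberg adjusted p = 0.611). Single hearts moved it to 0.068 (without A178D replicate 2), 0.039 (without WT replicate 4), 0.22 (without A178D replicate 1) and 0.25 (without WT replicate 3). There were 0.473, 0.661 and 0.677 *Tap1* counts for each *Tap2* count in WT replicates 1, 3 and 4. In A178D replicates 1 to 4 there were 0.688, 0.926, 0.624 and 0.442. The A178D hearts thus held both the highest and the lowest value, and the difference of the means was 0.12 on the log2 scale (exact permutation p = 0.8). Without A178D replicate 2 it was -0.051, and without WT replicate 1 it was -0.046.

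*Tapbp* (ENSMUSG00000024308, chromosome 17 from 33915899 to 33929292) encodes tapasin, which bridges TAP and the empty class I molecule and edits its peptide. It varied little between hearts, from 90.4 to 103.9 CPM in WT and from 85.2 to 102.4 CPM in A178D hearts. Every A178D heart but replicate 1, which was lowest, lay within the WT range. Its log2 fold change was -0.010 ± 0.08 (SE, edgeR, Benjamini-Hochberg adjusted p = 0.967). The annotated gene overlaps *Zbtb22* on the same strand over 3422 bases, so some reads may have been shared or lost. Of 11 further genes of the loading complex and of peptide trimming, 4 were above 0 and 7 below, with a median of -0.00061. With DESeq2, or with its size factors in edgeR, 6 were above 0 and 5 below. In the main edgeR fit 0 were called, with 2 higher and 1 lower at an unadjusted p under 0.05. The one lower was *Canx*, which encodes the chaperone calnexin and was the most abundant of the list. It was at 381, 385 and 439 CPM in WT and at 357, 341, 344 and 324 CPM in A178D hearts, with all A178D below all WT hearts (log2 fold change -0.23 ± 0.07, edgeR, Benjamini-Hochberg adjusted p = 0.111). DESeq2 called it lower (adjusted p = 0.0391), the only gene of the list it called, and limma-voom called 0. The highest fold change of this list was 0.18 for *Tpp2*, a cytosolic peptidase, which edgeR called with the correction for length and GC content (0.23, Benjamini-Hochberg adjusted p = 0.0338), and *Calr*, for the lectin chaperone calreticulin, was at -0.033.

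*B2m* (ENSMUSG00000060802) encodes beta-2-microglobulin, the light chain that every classical class I molecule needs to reach the cell surface. It lies on chromosome 2, as *Ttn* does, from 122147686 to 122153083. Its level was 215, 302 and 309 CPM in WT replicates 1, 3 and 4, and 284, 425, 287 and 252 CPM in A178D replicates 1 to 4. A178D replicate 2 was highest, WT replicate 1 lowest, and the other 3 A178D hearts lay within the WT range. *B2m* had a log2 fold change of 0.18 ± 0.16 (SE, edgeR, Benjamini-Hochberg adjusted p = 0.608), which became -0.0013 without A178D replicate 2 and 0.034 without WT replicate 1. With WT replicate 4 or A178D replicate 4 left out, it was 0.27, and the correction for length and GC content gave 0.10.

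The class I heavy chains, the partners of *B2m*, showed the same heart at the top. Of 12 tested heavy chain and class I-like genes, 11 lay above 0, the median log2 fold change was 0.14, and edgeR, DESeq2 and limma-voom called 0, with 0 at an unadjusted p under 0.05 in edgeR. A178D replicate 2 was the highest heart in 8 of the 12, and without it 5 were above 0 and 7 below, with a median of -0.014. Leaving out WT replicate 1 gave a median of 0.081, leaving out WT replicate 3 gave 0.27, and leaving out A178D replicate 4 gave 0.23. It was 0.074 with the correction for length and GC content. *H2-K1* was at 194, 273 and 235 CPM in WT replicates 1, 3 and 4, and at 209, 371, 251 and 210.2 CPM in A178D replicates 1 to 4. *H2-D1* was at 144, 189 and 174 CPM in WT and at 149, 233, 180 and 162 CPM in A178D hearts. In both genes 3 of the 4 A178D hearts lay within the WT range. The extremes of the list were *H2-M3* at 0.35 and *Mr1*, which presents vitamin B metabolites, at -0.072. These genes form a family of close copies, and the split of reads among them is uncertain.

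*Nlrc5* (ENSMUSG00000074151, chromosome 8 from 94434356 to 94527272) encodes the class I transactivator, which assembles on the promoters of heavy chain genes, *B2m*, *Tap1* and *Psmb9*. Its level was 6.74, 11.6 and 10.5 CPM in WT replicates 1, 3 and 4, and 9.59, 19.7, 13.4 and 5.78 CPM in A178D replicates 1 to 4. Both extremes were A178D hearts, with replicate 2 at the top and replicate 4 at the bottom, below all WT hearts. For *Nlrc5* this left a log2 fold change of 0.35 ± 0.30, with the largest SE of the 10 genes (edgeR, Benjamini-Hochberg adjusted p = 0.601). It was 0.0065 without A178D replicate 2 and 0.57 without A178D replicate 4. Leaving out WT replicate 1 made it 0.15.

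**Figure D2:**
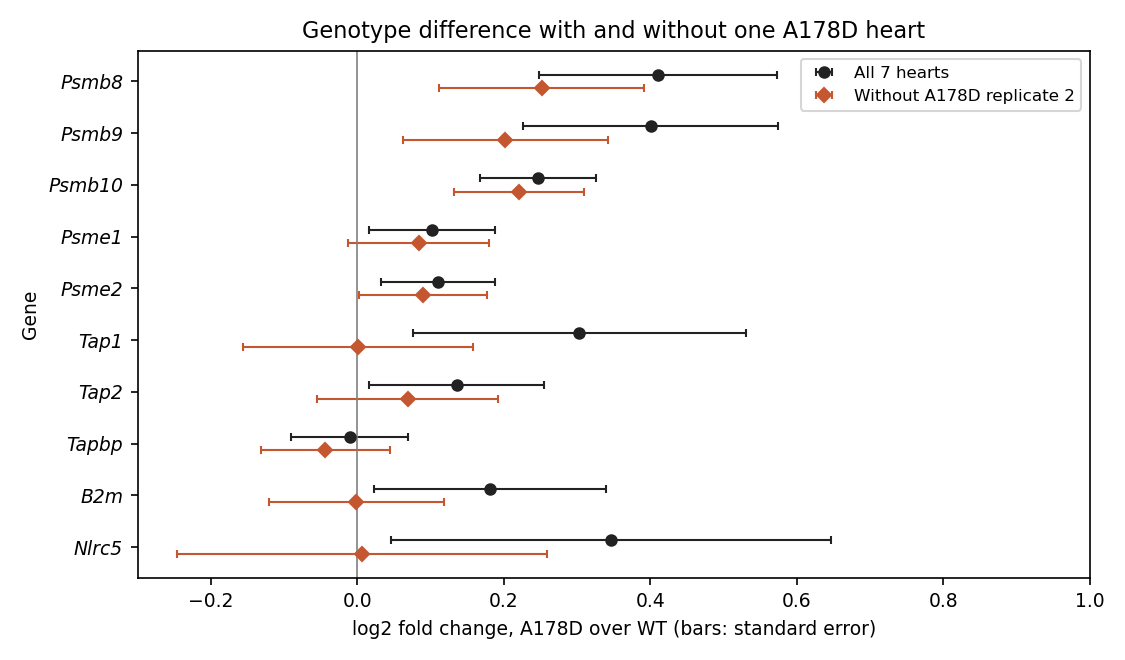
Log2 fold change of A178D over WT for each gene from edgeR, with bars of 1 standard error, from all 7 hearts (black circles) and without A178D replicate 2 (red diamonds). *Tap1*, *B2m* and *Nlrc5* fall from 0.30, 0.18 and 0.35 to near 0, whereas *Psmb10* moves from 0.25 to 0.22.

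Per transcript length, the 10 genes spanned a wide range of levels in the ventricle. *B2m* was highest at a mean of 345 CPM per kb over the 7 hearts, followed by *Psme1* at 127, *Psme2* at 61.2, *Psmb10* at 38.5 and *Tapbp* at 33.0 CPM per kb. *Psmb8* at 13.4, *Tap2* at 10.3, *Psmb9* at 8.08 and *Tap1* at 7.76 CPM per kb formed a lower group, and *Nlrc5* was lowest at 1.46. Of the 9 pairs of neighbours in this order, 4 overlapped across hearts, namely *Psmb10* with *Tapbp*, *Psmb8* with *Tap2*, *Tap2* with *Psmb9*, and *Psmb9* with *Tap1*. With the union of exons as length, *Tap2* came before *Psmb8* and *Tap1* before *Psmb9*. By the longest transcript *H2-K1* stood at 154 and *H2-D1* at 83.7 CPM per kb, and by the union of exons at 84.7 and 68.2, below *B2m* either way. The constitutive partners *Psmb6*, *Psmb7* and *Psmb5* stood at 181, 149 and 74.4 CPM per kb by the longest transcript and at 77.2, 50.5 and 74.4 by the union of exons, so their order depends on the length.

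**Figure D3:**
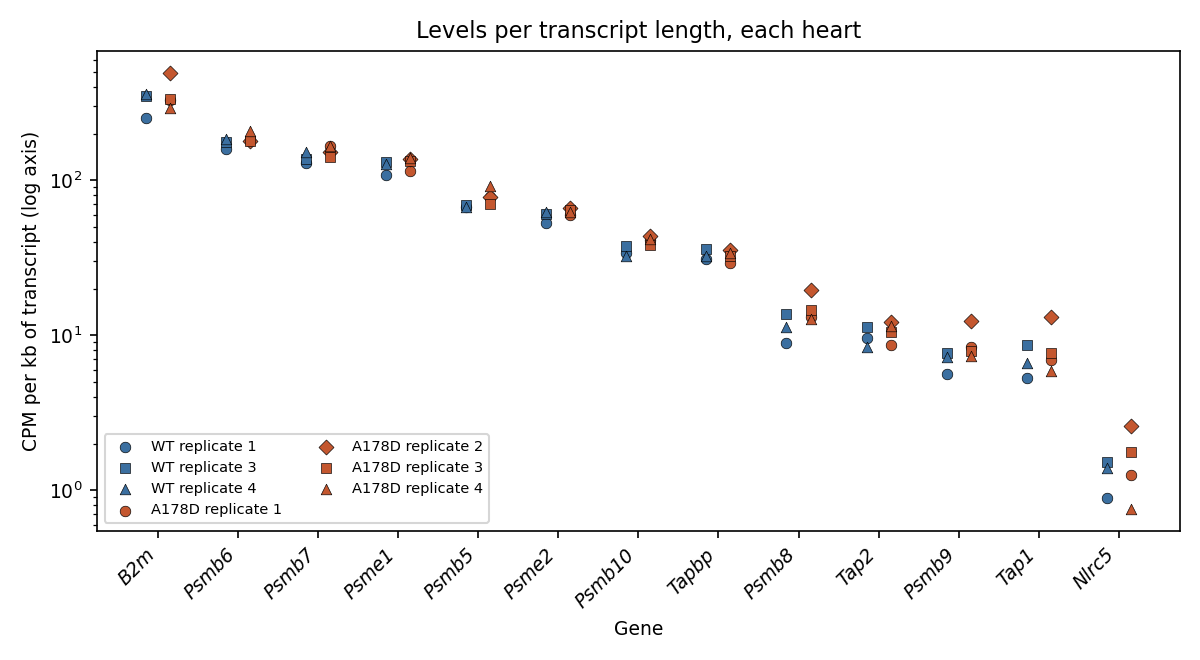
Level per transcript length of the 10 genes and of 3 constitutive beta subunit genes in each heart, in CPM per kb of the longest protein-coding transcript on a log axis. Genes are ordered by their mean, from *B2m* at 345 to *Nlrc5* at 1.46, blue symbols are WT and red symbols A178D hearts, and each point is 1 heart.

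The average profile of *Psmb8*, *Psmb9* and *Psmb10*, as log2 CPM centred on the mean of the 7 hearts, was -0.41, 0.0048 and -0.19 in WT replicates 1, 3 and 4. In A178D replicates 1 to 4 it was 0.062, 0.48, 0.051 and -0.0052. WT replicate 1 and A178D replicate 2 were thus the ends of the profile, with the other 5 hearts between them. Likeness to this profile was measured as the root mean square difference over the 7 hearts, in log2 units, for the 12303 other genes with a mean of 1 CPM or more, whose median was 0.285. The 5 most alike genes were *Irf7* (0.057), *Parp9* (0.065), *H2-T23* (0.084), *Msr1* (0.086) and *Nup43* (0.090). *Irf7* encodes an interferon regulatory factor, *Parp9* an ADP-ribosyltransferase family member, *H2-T23* the class Ib molecule Qa-1, *Msr1* a macrophage scavenger receptor and *Nup43* a nuclear pore protein. Of the 3 genes averaged, *Psmb8* differed from the profile by 0.090, *Psmb9* by 0.092 and *Psmb10* by 0.153. *Psmb10* was lowest in WT replicate 4, at -0.24, and stood at -0.17 in WT replicate 1. Among the other members, *B2m* differed from the profile by 0.140, *Tap1* by 0.208 and *Nlrc5* by 0.403.

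Interferon gamma is the classical inducer of these genes, and its signalling and target genes were counted next to them. Of 25 interferon target genes, 21 lay above 0, their median log2 fold change was 0.21, and edgeR, DESeq2 and limma-voom called 0, with 1 at an unadjusted p under 0.05 in edgeR. A178D replicate 2 was the highest heart in 22 of the 25. Without it, 14 were above 0 and the median was 0.029, and without WT replicate 1, 13 were above 0 with a median of 0.049, while without WT replicate 3, 24 were above 0 with a median of 0.31. Their summed level was 396, 666 and 595 CPM in WT replicates 1, 3 and 4, and 518, 920.5, 620 and 455 CPM in A178D replicates 1 to 4. The most abundant, *Iigp1*, an immunity-related GTPase gene, was at 50.9, 122 and 112 CPM in WT and at 81.3, 172, 125 and 72.0 CPM in A178D hearts. The extremes were *Igtp* at 0.55 and *Gbp5* at -0.20, and without A178D replicate 2 *Igtp* was at -0.12. The part of this heart's interferon target level in the values of the 10 genes was not tested.

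Of 12 tested genes of interferon gamma signalling, 7 were above 0 with a median of 0.0061, or -0.073 without A178D replicate 2 and 0.047 without A178D replicate 1, and 1 was called, *Jak1*, for a kinase of the interferon receptors. At an unadjusted p under 0.05, 1 gene was higher and 2 were lower, *Jak1* and *Jak2*. *Jak2*, the other kinase of the interferon gamma receptor, is named after its values were seen and was not called (log2 fold change -0.22, edgeR, Benjamini-Hochberg adjusted p = 0.136), although all A178D hearts lay below all WT hearts. *Jak1* was at 231, 252 and 244 CPM in WT and at 203, 192, 198 and 184 CPM in A178D hearts, with no overlap. DESeq2 and limma-voom also called it lower, and no other gene of the list. It fell by 0.32 on the log2 scale (SE 0.07, edgeR, Benjamini-Hochberg adjusted p = 0.025). The call was kept in 2 of the 7 fits that left out a heart, with adjusted p from 0.0189 to 0.153. It was lost without WT replicate 3, WT replicate 4 or A178D replicate 1, 2 or 3, while the log2 fold change stayed between -0.35 and -0.29. With the replicate number as a block the call was lost too, at a log2 fold change of -0.31 over 7 hearts and over 6. The adjusted p was then 0.0941 and 0.0957 (edgeR, Benjamini-Hochberg). The most abundant gene of the list, *Ifngr2*, a chain of the interferon gamma receptor, had a log2 fold change of 0.0058, and the highest was 0.37 for *Irf8*. *Ifng*, named here after its values were seen, did not reach the filter on low counts.

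Leukocytes express the immunoproteasome and class I genes strongly, so their markers were summed in each heart. The 5 pan-leukocyte genes summed to 46.2, 53.3 and 46.4 CPM in WT replicates 1, 3 and 4, and to 57.8, 65.1, 53.3 and 56.5 CPM in A178D replicates 1 to 4. All 5 were above 0 with a median of 0.32, and edgeR, DESeq2 and limma-voom called 0, with 3 at an unadjusted p under 0.05 in edgeR. Without A178D replicate 2 the median was 0.25, with 4 genes above 0 and 1 below. The most abundant was *Laptm5* at 0.22. The lowest of the 5 was *Ptprc*, for the common leukocyte antigen CD45, at 0.14 and at -0.019 without A178D replicate 2. The 12 macrophage genes summed to 334, 435 and 399 CPM in WT and to 470.0, 476, 425 and 479 CPM in A178D hearts. Of these, 11 were above 0 with a median of 0.30, or 0.19 without A178D replicate 2 and 0.14 without WT replicate 1, and 1 was called higher, *Lyz2*, for lysozyme, with 4 higher and 1 lower at an unadjusted p under 0.05. It was also the 1 gene that limma-voom called, and DESeq2 called 2, *Lyz2* and *C1qb*. In edgeR *C1qb* was called without the filter on low counts and with the replicate number as a block. It was called in 0 of the 7 fits that left out a heart. Its log2 fold change was 0.33 without WT replicate 1, against 0.50 with all 7 hearts.

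*Lyz2* rose from 109, 137 and 137 CPM in WT to 177.8, 165, 153 and 179 CPM in A178D hearts (log2 fold change 0.40 ± 0.09, edgeR, Benjamini-Hochberg adjusted p = 0.034). The call was kept in 2 of the 7 fits that left out a heart, with adjusted p from 0.045 to 0.117, and lost without WT replicate 1, 3 or 4 or A178D replicate 1 or 2, while the log2 fold change stayed between 0.30 and 0.46. The extremes of the macrophage list were *C1qb* at 0.50 and *Cd163* at -0.32. Without WT replicate 1, 10 of the 12 were above 0 and *Cd163* was called lower, at -0.49 (edgeR, Benjamini-Hochberg adjusted p = 0.0409). Among the 10 tested MHC class II genes, which professional antigen-presenting cells express, 10 were above 0 with a median of 0.26, or 0.18 without A178D replicate 2, and edgeR, DESeq2 and limma-voom called 0, with 1 at an unadjusted p under 0.05 in edgeR. *Cd74*, the invariant chain and the most abundant of them, was at 120, 168 and 137 CPM in WT and at 122, 200.2, 165 and 144 CPM in A178D hearts. T and NK cell genes summed to between 2.97 and 4.6 CPM in WT and between 3.02 and 4.39 CPM in A178D hearts, with 8 of 10 tested, 4 above 0, and 0 called by edgeR and DESeq2, with 1 at an unadjusted p under 0.05 in edgeR. That gene, *Cd3d*, was called by limma-voom, had no adjusted p in DESeq2 and stayed at or under 0.494 CPM in every heart. The part of leukocyte content in the values of the 10 genes was not tested.

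Promoter letters were searched in the genes with a window, and the sequences of *Psmb8*, *Psmb9* and *B2m* are printed as examples chosen after their values were seen. RefSeq windows of 300 bases, from 250 bases before to 50 after the gene start (GRCm38.p6), matched 8 of the 10 genes in 9 windows, and windows for *Tap2* and *Nlrc5* were not used here. The RefSeq starts of *Tapbp*, *Psmb8*, *Psmb9* and *Psme1* lie 3579, 474, 434 and 371 bases inside the genes as GENCODE draws them, so the windows of these 4 genes do not reach the GENCODE start. Exact letters were searched on both strands for 4 motifs. These were GAAANNGAA, the core repeat of the interferon-stimulated response element, TTCNNNGAA, the palindrome of STAT dimers, ATTGG, the inverted CCAAT box, and TGACG, a half-site of the cyclic AMP response element found in class I promoters. The first and the second of these can share their GAA, but no matches overlapped in the windows printed here. GAAANNGAA occurred in 8.56% of all 32851 windows of the table and in those of *Psme1* and *B2m*. TTCNNNGAA occurred in 8.3% of all windows and, of the 8 genes with a window, in that of *Psmb8*. ATTGG occurred in 37.4% of all windows and in those of *Psmb9*, *Tap1*, *Tapbp* and *B2m*, and TGACG in 20.8% and in those of *Psmb9*, *Psme2*, *Tap1* and *B2m*.

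The *Psmb8* window, on the plus strand at chr17:34197945-34198244, holds its single match, TTCCCAGAA, at chr17:34198098-34198106. The *Psmb9* window, on the minus strand at chr17:34187281-34187580, shares 275 bases with the *Tap1* window on the plus strand, and the gene starts lie 226 bases apart, so that the matches there are the same letters for both genes. The *B2m* window, on the plus strand at chr2:122147437-122147736, is the one of the 3 with GAAANNGAA, at chr2:122147548-122147556, followed by TGACG and ATTGG nearer to the start and by the reverse complement of TGACG after it, at chr2:122147731-122147735. Sequences run 5′ to 3′ on the strand of the gene, and capitals mark the matches. A match describes the letters and does not show that a factor binds.
Psmb8: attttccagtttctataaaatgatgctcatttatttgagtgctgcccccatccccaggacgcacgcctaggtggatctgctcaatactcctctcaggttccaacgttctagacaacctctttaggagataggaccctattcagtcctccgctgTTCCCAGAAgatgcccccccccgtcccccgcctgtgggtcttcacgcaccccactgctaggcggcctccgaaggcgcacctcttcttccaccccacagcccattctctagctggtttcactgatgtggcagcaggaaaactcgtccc
Psmb9: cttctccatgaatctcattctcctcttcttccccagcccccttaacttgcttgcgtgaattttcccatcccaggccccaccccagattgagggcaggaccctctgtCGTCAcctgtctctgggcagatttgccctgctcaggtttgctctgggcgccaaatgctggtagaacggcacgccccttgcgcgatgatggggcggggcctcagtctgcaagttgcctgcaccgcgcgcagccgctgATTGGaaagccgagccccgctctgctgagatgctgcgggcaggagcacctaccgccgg
B2m: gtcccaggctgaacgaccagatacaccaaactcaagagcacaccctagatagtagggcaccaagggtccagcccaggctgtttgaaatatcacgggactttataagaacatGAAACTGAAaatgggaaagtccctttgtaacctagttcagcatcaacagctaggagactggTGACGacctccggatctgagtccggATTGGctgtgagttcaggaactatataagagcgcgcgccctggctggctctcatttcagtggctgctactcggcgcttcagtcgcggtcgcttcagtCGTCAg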

How the data were processed

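Left ventricles of 7 mice, 3 WT and 4 A178D, were analysed. The authors made stranded poly(A) libraries (TruSeq), sequenced both ends on a HiSeq and deposited raw counts per gene without normalization. The submitters' processing notes name GRCm38, bcl2fastq 2.18.0.12, HISAT2 2.1.0, SAMtools 1.6 and DESeq2 1.26.0, and the counting program, its annotation and its use of strand are not given in the sources used here. A second deposited table, of values scaled by DESeq2, was not used.

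Identifiers were matched to GENCODE M21 (GRCm38), and 268 of 21257 entries had no name. Of 442 entries that shared their counts in every library with another and had 30 or more, 1 per set was kept, none of the 10 genes being among them, which left 20927. Odd numbers made up 17.6 to 20.3% of counts from 1 to 20, so ends seem to have been counted separately and fewer molecules than counts stand behind low values.

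Genotypes were compared in R 4.3.3 with edgeR 4.0.16 (TMM, quasi-likelihood test, no covariate) in the 13894 genes with 10 counts in 3 libraries, and calls are Benjamini-Hochberg adjusted p under 0.05 over all of them. The analysis code was tested on simulated data. Alternatives were DESeq2 1.42.0, its size factors in edgeR, limma-voom (limma 3.58.1), other filters, a stricter threshold, the replicate number as a block, each heart left out, every entry kept, counts halved and offsets for length and GC content (mgcv 1.9.3). Ratios were tested by exact two-sided permutation over all 35 assignments of the hearts. Levels per kb used the longest protein-coding transcript. Promoter windows came from RefSeq (GRCm38.p6).

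The 10 genes and all gene lists were chosen with earlier results of these data known. Named genes are the 10, the partner subunits, the 2 most abundant, called and extreme genes of each list, the 5 most alike to the average profile, *Ttn*, and *Acta1* and *Nppa* for scale. Genes outside this rule were named after their values were seen.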

Additional observations from a re-analysis of the deposited data

How the results depend on the processing

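None of the 10 genes was called under any alternative, with edgeR adjusted p from 0.125 upwards and a lowest DESeq2 adjusted p of 0.072. Calls over all genes numbered 327, against 665 with DESeq2, 518 with offsets for length and GC content, 64 at an adjusted p under 0.01, and 53 to 453 with single hearts left out. Genes of the 10 with an unadjusted p under 0.05 numbered 3, against 0 with the offsets and 1 to 4 with single hearts left out. The median over the 10 ranged from 0.076 to 0.28 with single hearts left out and was 0.14 with the offsets. The causes were not tested.

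Among single genes, the sign changed for *Psme1* (-0.013) and *Psme2* (-0.011) with the offsets, for *Tapbp* (0.051 without WT replicate 3 and 0.040 without A178D replicate 1, in a range from -0.049 to 0.051) and for *B2m* (-0.0013 without A178D replicate 2, in a range from -0.0013 to 0.27). Log2 differences of ratios with single hearts left out ran from 0.036 to 0.33 for *Psmb8* to *Psmb5*, 0.076 to 0.40 for *Psmb9* to *Psmb6*, -0.030 to 0.16 for *Psmb10* to *Psmb7*, -0.045 to 0.025 for *Psme1* to *Psme2* and -0.051 to 0.30 for *Tap1* to *Tap2*. With the union of exons as length, the level of *B2m* was unchanged and that of *Psmb9* fell from 8.08 to 2.99 CPM per kb.

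The genotypes share replicate numbers 1, 3 and 4, and the labels do not say what the number stands for. Deviations of same-numbered hearts had correlations across genes of 0.0029, -0.028 and -0.025. Correlations over all genes cannot decide whether such hearts shared a litter or a preparation, which was not tested. With the replicate block, edgeR called 271 genes over all 7 hearts and 272 over the 6 hearts with a shared number, 0 of the 10 in either. A178D replicate 2 has no partner and adds nothing to that estimate. The median over the 10 was 0.073 and 0.076, and *Nlrc5* stood at -0.027 and -0.025.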

Other observations

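Other cells of the ventricle were counted by their markers. All 4 smooth muscle genes fell in A178D hearts and did not overlap, with a median log2 fold change of -0.65, and edgeR, DESeq2 and limma-voom each called all 4. Over all tested genes, all A178D hearts lay below all WT hearts in 8.52%, and edgeR called 1.31% lower. The 4 smooth muscle genes summed to 431, 414 and 394 CPM in WT replicates 1, 3 and 4 and to 220, 283, 295 and 271 CPM in A178D replicates 1 to 4. *Acta2*, the most abundant of them, and *Tagln* were called in all 7 fits that left out a heart, with edgeR adjusted p up to 0.0499 and 0.041 after Benjamini-Hochberg adjustment. *Myh11* was called in 5 of these fits, all but those without WT replicate 3 or WT replicate 4, and *Cnn1* in 1, the fit without A178D replicate 4. Over these fits the log2 fold change stayed between -0.75 and -0.55 for *Myh11* and between -0.96 and -0.63 for *Cnn1*. *Cnn1* was not called with the replicate block either (edgeR, Benjamini-Hochberg adjusted p = 0.0617 over 7 hearts and 0.0585 over 6).

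Of 8 endothelial genes 5 were above 0 with a median of 0.055, and *Kdr* was the most abundant. Of 6 fibroblast genes 5 were above 0 with a median of 0.12, *Dcn* was the most abundant and *Col1a1* the highest at 0.45. Of 8 cardiomyocyte genes 4 were above 0 with a median of 0.0027. The B cell, dendritic cell and neutrophil genes had 4 of 5, 3 of 6 and 3 of 3 tested genes above 0, and their summed levels stayed at or under 5.35, 20.8 and 4.61 CPM in every heart. With single hearts left out, the endothelial, fibroblast and cardiomyocyte medians ran from -0.0025 to 0.068, from 0.060 to 0.17 and from -0.055 to 0.044. In these 6 lists edgeR called 0 genes. At an unadjusted p under 0.05 were 3 of 6 fibroblast, 2 of 8 cardiomyocyte and 1 of 6 dendritic cell genes, all higher in A178D, beside 7.93% of all tested genes. All A178D hearts exceeded all WT hearts in 3 fibroblast, 2 cardiomyocyte and 1 dendritic cell gene, beside 7.61%. They lay below all WT hearts in 1 cardiomyocyte and 1 dendritic cell gene, beside 8.52%. DESeq2 called 1, *Col1a1*, and limma-voom 0. In edgeR *Col1a1* was also called without WT replicate 1, without the filter on low counts and with the offsets for length and GC content, which added *Col1a2*, named after its values were seen. Without WT replicate 4 *Col1a1* was at 0.27.

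For scale, *Acta1*, the skeletal alpha-actin gene, was between 69.3 and 182.5 CPM in WT and between 495 and 811 CPM in A178D hearts. *Nppa*, for atrial natriuretic peptide, was between 109 and 249 CPM in WT and between 322 and 588 CPM in A178D hearts. A178D replicate 2 was neither the highest nor the lowest A178D heart for *Nppa* and was the lowest A178D heart for *Acta1*, while it was the highest heart for *Psmb8*, *Psmb9*, *Tap1*, *B2m* and *Nlrc5*.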
